A study of Canis lupus familiaris with 25 samples.

Results

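The genes described here are 7 keratins of stratified and sebaceous epithelium, KRT5, KRT14, KRT15, KRT1, KRT10, KRT17 and KRT79, which were picked by symbol from the 24532 genes of a canine QuantSeq 3′ count table. All 7 were found. Total RNA of archival FFPE (formalin-fixed, paraffin-embedded) tumors of pet dogs was read near the 3′ end of each transcript in 25 samples. These were 10 hepatoid gland adenomas (HGA), a benign tumor of the perianal glands, and 11 primary tumors and 4 metastases of apocrine gland anal sac adenocarcinoma (AGASAC), which is malignant. The metastases were labeled as sublumbal lymph node metastases and came from the dogs of AGASAC 1 to 4. The HGA came from 5 male and 5 female dogs of 8 to 14 years, 6 intact and 4 neutered. The primary AGASAC came from 6 male and 5 female dogs of 8 to 12.5 years, 2 intact and 9 neutered, and the metastases from 2 male and 2 female dogs of 8 to 10 years, 1 intact and 3 neutered. The study names no treatment, breeds varied, and tissue next to the tumor had been cut away before extraction. Since these are pieces of bulk tissue, fewer cells of a type and less RNA per cell cannot be told apart in any value given here.

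Keratins are the intermediate filament proteins of epithelial cells, and each filament needs a type I partner, here KRT10, KRT14, KRT15 and KRT17, and a type II partner, here KRT1, KRT5 and KRT79. KRT5 and KRT14 pair in the basal layer of stratified epithelia, KRT15 is another basal and hair follicle keratin, and KRT1 and KRT10 replace them when keratinocytes leave the basal layer. KRT17 is a keratin of skin appendages and of stressed epidermis, and KRT79 is known from the sebaceous gland and the canal that joins it to the hair follicle. Hepatoid glands are modified sebaceous glands of the dog, while the secretory cells of apocrine glands carry the simple epithelial keratins KRT7, KRT8, KRT18 and KRT19.

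Each HGA had between 1562347 and 6389555 reads counted on genes, which ranged from 2581453 to 4218340.0 in primary AGASAC and from 2857541 to 3289546 in the metastases. Levels are CPM, read counts relative to the library size scaled by the TMM method over the 25 samples, and as QuantSeq 3′ yields about a single read per transcript, they were not divided by transcript length. Where no read was counted, the true value may be as high as 3 counts, or 0.543 to 1.84 CPM in an HGA and 0.729 to 1.05 CPM in a primary AGASAC, and this limit covers counting error only. Calls of changed genes needed a 2-fold difference (log2FC 1 or −1) beside an adjusted p of 0.05 or less in edgeR's quasi-likelihood test over all genes that passed a filter on low counts. Both labels were set against markers. The 13 sebocyte marker genes summed to 41990.4 to 119633 CPM in HGA 1 to 9 and to 1871 to 5408 CPM in primary AGASAC, and the 7 luminal gland markers to 5.16 to 148 CPM in HGA and 4388 to 10159 CPM in primary AGASAC. SCD (a fatty acid desaturase) alone made most of the sebocyte sum in HGA 1 to 9, such as 116391 of 119633 CPM in HGA 5. HGA 10 stood apart from the other HGA with a sebocyte sum of 3911 CPM, within the range of primary AGASAC, of which SCD made 2206, against 37005 to 116391 CPM of SCD in the other HGA. It kept 386 CPM of CIDEA, a lipid droplet gene, and 11.6 CPM of AWAT2, a wax synthase, which had 1 count each in all primary AGASAC together. HGA 10 was also the only sample of extraction batch 9 and the only HGA of the second naming series of sequencing files, so that its batch and its values cannot be told apart, and results that rest on it are given with and without it.

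The comparison of HGA with primary AGASAC asked how the keratins differ between both tumors. KRT14, KRT5, KRT17 and KRT79 were all far higher in HGA, KRT10 was present in every tumor of both types at overlapping levels, and KRT1 and KRT15 were found at low levels in some tumors. Together the 7 keratins took 0.406% to 1.45% of the counts of an HGA and 0.00682% to 0.0243% of those of a primary AGASAC. Of the 7, 5 passed the filter, and 4 of these 5 were called, all higher in HGA. Over all 12070 genes tested, 25.1% were called, and 12.6% were called higher in HGA. The groups did not overlap for KRT5, KRT14 and KRT79, as for 4.37% of the tested genes with every HGA above every primary AGASAC.

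**Figure D1:**
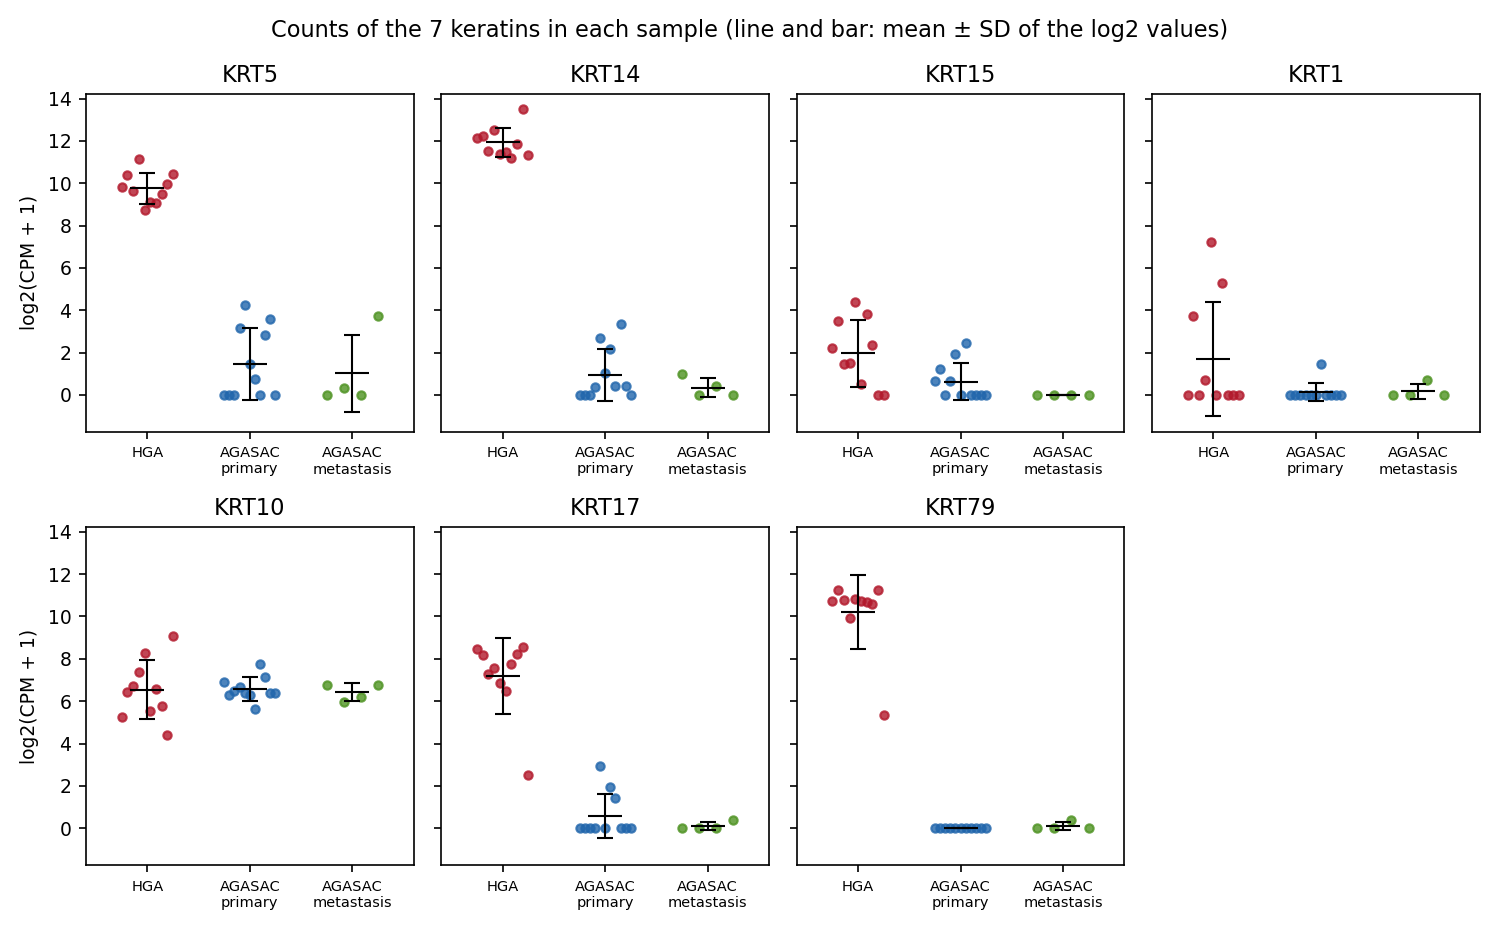
Each point is a sample, placed by its tumor group (horizontal axis) and its log2(CPM + 1) (vertical axis), with a panel per keratin, and the line and bar give the mean ± SD of the log2 values. HGA (n = 10) sit above all primary AGASAC (n = 11) and metastases (n = 4) for KRT5, KRT14 and KRT79, the 3 groups share a range for KRT10, and the lowest HGA point for KRT17 and KRT79 is HGA 10.

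Among the basal keratins, KRT14 ranged in HGA from 2359 to 11496 CPM with a median of 3367, and in primary AGASAC from 0 to 9.18 CPM with a median of 0.326. The most KRT14 counts of a primary AGASAC were 32, in AGASAC 9, where the HGA with the fewest held 4980.0. The mean was 4397 ± 2747 CPM (SD, n = 10) in HGA and 1.84 ± 3.03 CPM (SD, n = 11) in primary AGASAC (log2FC 11.23, SE 0.85, adjusted p = 2.84e-09). KRT5, the type II partner of KRT14, ranged from 422 to 2254 CPM with a median of 848 in HGA, and from 0 to 18.05 CPM with a median of 0.699 in primary AGASAC. Its mean was 987 ± 548 CPM (SD, n = 10) in HGA and 4.15 ± 6.03 CPM (SD, n = 11) in primary AGASAC (log2FC 7.92, SE 0.85, adjusted p = 6.22e-07). KRT15 was the weakest basal keratin, with 0 to 19.96 CPM with a median of 2.73 in HGA and 0 to 4.54 CPM with a median of 0 in primary AGASAC. The groups overlapped for KRT15, which was above 3 counts in 5 of 10 HGA and 3 of 11 primary AGASAC and did not pass the filter. Fitted without the filter, its log2FC was 2.58 (SE 0.96, adjusted p = 0.409), which was not called, and the adjusted p ranged from 0.268 to 1.00 over the alternatives.

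The suprabasal partners KRT1 and KRT10 behaved unlike each other. In assembly UU_Cfam_GSD_1.0 KRT10 overlaps a long non-coding RNA gene, and as the strand setting of the counting is not given in the sources used here, reads of both may be joined in every KRT10 value. KRT10 ranged from 20.4 to 531 CPM with a median of 90.5 in HGA and from 48.2 to 217 CPM with a median of 83.2 in primary AGASAC, so that the groups overlapped fully. The means were 145 ± 160.0 CPM (SD, n = 10) and 101 ± 45.1 CPM (SD, n = 11), and the difference was not called (log2FC 0.55, SE 0.43, adjusted p = 1.00), with a 95% interval of the log2FC from −0.35 to 1.44. The higher HGA mean rested on HGA 10, which had 531 CPM, and without it the log2FC was 0.04. KRT1 had 0 counts in 6 of 10 HGA, 1 count in HGA 4, and 12.2, 38.6 and 148 CPM in HGA 2, 7 and 5. In primary AGASAC it had 5 counts in AGASAC 7 and 0 in the other 10. KRT1 did not pass the filter, and the fits without it were split, since edgeR gave a log2FC of 6.71 (SE 1.46, adjusted p = 0.00834) and DESeq2 one of 6.94 (SE 2.82, adjusted p = 0.365), with a range from 0.00834 to 1.00 over the alternatives. Most tumors with KRT10 had no KRT1 count beside it.

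Of the appendage keratins, KRT79 was counted in every HGA and in no primary AGASAC. It ranged from 39.1 to 2427 CPM with a median of 1701 in HGA, where HGA 10 was lowest and HGA 4 the next lowest with 977 CPM, and had 0 counts in all 11 primary AGASAC. The mean of 1599 ± 687 CPM (SD, n = 10) in HGA was at least 1706-fold higher than the mean of 3 counts per library that 0 allows in primary AGASAC (adjusted p = 6.33e-08). KRT17 ranged from 4.73 to 374 CPM with a median of 201 in HGA, with HGA 10 lowest and HGA 6 next with 87.95 CPM. In primary AGASAC it was found in AGASAC 5, 7 and 8 with 6.59, 2.80 and 1.68 CPM and had 0 counts in the other 8. HGA 10 lay below AGASAC 5, and no other HGA overlapped with a primary AGASAC. The mean was 208 ± 120.4 CPM (SD, n = 10) in HGA and 1.01 ± 2.07 CPM (SD, n = 11) in primary AGASAC (log2FC 7.76, SE 0.83, adjusted p = 5.85e-07).

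The 4 calls were also read within extraction batches and naming series, as HGA and primary AGASAC were spread unevenly over both. Both tumors had at least 2 samples in extraction batches 5, 6 and 8. KRT79 was called in all 3, and its groups did not overlap in any of them. In batch 5 (3 HGA, 3 primary AGASAC) the log2FC of KRT14 was 10.68 (adjusted p = 0.0319), of KRT5 9.14 (adjusted p = 0.0417) and of KRT17 8.32 (adjusted p = 0.0365). In batch 6 (3 HGA, 2 primary AGASAC) the values were 12.59 (adjusted p = 0.00399), 7.49 (adjusted p = 0.0173) and 12.68 (adjusted p = 0.00955). In batch 8 (2 HGA, 3 primary AGASAC) they were 10.5002 (adjusted p = 0.0797), 6.53 (adjusted p = 0.432) and 6.15 (adjusted p = 0.281), of the same direction and not called. In naming series A alone (9 HGA, 3 primary AGASAC) all 4 were called. Its primary tumors, AGASAC 1 to 3, had 0 counts of all 4, so that the fitted log2FC of 14.48 for KRT5, 16.77 for KRT14, 12.45 for KRT17 and 15.38 for KRT79 are no bounds, and in series B, with 1 HGA, no fit was made. KRT10 had a log2FC of −0.19, 0.74 and −0.36 in batches 5, 6 and 8, and none was called. A scaling by library size alone lowered the median log2FC of all genes from −0.03 to −0.33 and changed the split of calls from 1523 higher and 1509 lower in HGA to 1053 and 2156, while the 4 keratin calls kept their direction.

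**Figure D2:**
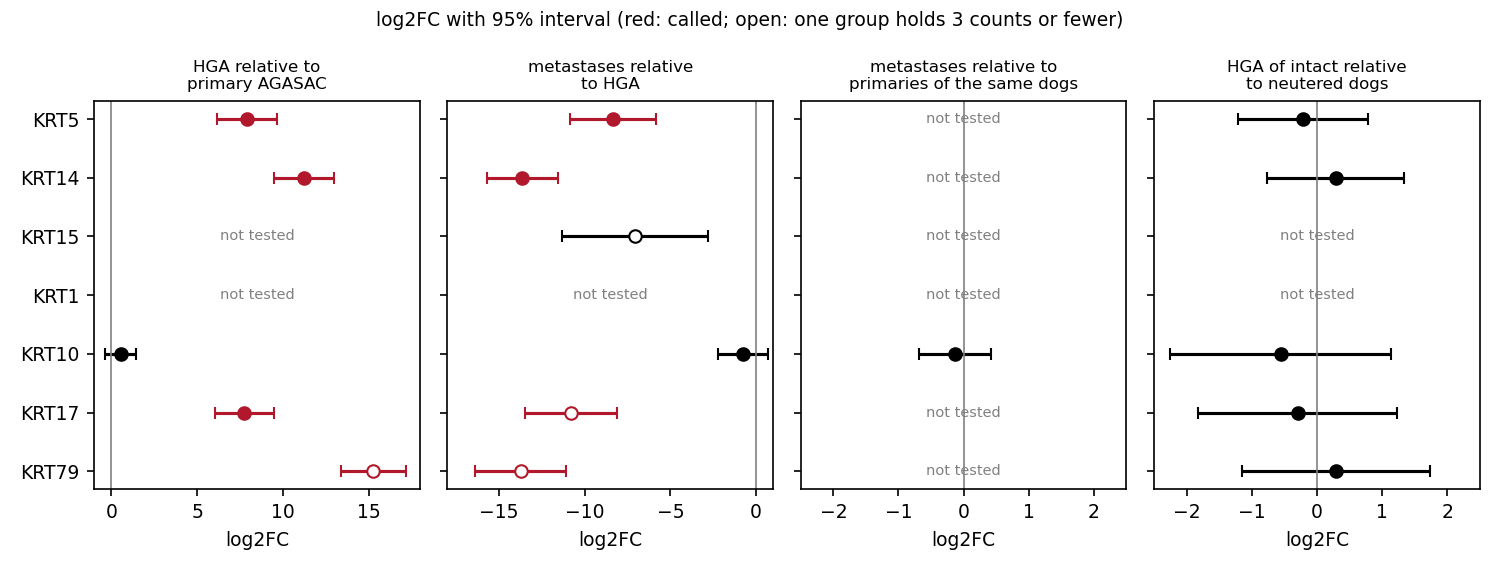
The log2FC (horizontal axis) of each keratin (vertical axis) is drawn with its 95% interval for the 4 comparisons. Red marks called keratins, and open circles mark values that rest on a group with 3 counts or fewer, such as KRT79 in primary AGASAC, which depend on the fit's prior count and are no bound. In the first panel KRT5, KRT14, KRT17 and KRT79 lie above 6 with their whole intervals and the KRT10 interval crosses 0.

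In HGA the keratins followed a steep order of levels. KRT14 was the highest of the 7 in 10 of 10 HGA, and its level was 2.63 to 11.6 times that of KRT5 in HGA 1 to 9 and 1.91 times in HGA 10. KRT79 and KRT5 followed, with KRT79 above KRT5 in 8 of 10 HGA, and their means over the 10 HGA differed by less than the SD of KRT79. This rested on HGA 10, since without it the means were 1772 ± 439 CPM for KRT79 and 944 ± 563 CPM for KRT5 (SD, n = 9). KRT17 and KRT10 came next, with means that differed by less than their SDs and KRT17 above KRT10 in 8 of 10. KRT1 and KRT15 were last, and KRT1 was above KRT15 only in HGA 2, 5 and 7. In primary AGASAC and metastases the order was another one, since KRT10 was the highest of the 7 in 15 of 15 samples and made 71.6% to 100% of their counts.

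The primary AGASAC with counts of a stratified keratin other than KRT10 were not the same for each gene. KRT5 was above 3 counts in AGASAC 4, 5, 6, 9 and 10, with 29, 52, 5, 21 and 34 counts. KRT14 was above 3 counts in AGASAC 5, 7 and 9, with 16, 10 and 32 counts. The partners were thus both present in AGASAC 5 and 9, while AGASAC 4 and 10 had KRT5 with 1 count of KRT14 each, and AGASAC 7 had KRT14 with 2 counts of KRT5. KRT15 was above 3 counts in AGASAC 2, 5 and 7, with 4, 8 and 13 counts. AGASAC 1, 2, 3 and 11 had 0 counts of KRT5, KRT14, KRT1, KRT17 and KRT79. The 11 surface epidermis markers in the table summed to 26.7, 21.3 and 135 CPM in AGASAC 5, 7 and 9 and to 6.86 to 685 CPM over all primary AGASAC, of which TGM3 alone, a transglutaminase with 0 counts in all HGA, made up to 679.9 CPM. The epidermal gene FLG was at 0 in 9 of 11 primary AGASAC, with 2 counts in AGASAC 2 and 3 in AGASAC 5. Other genes of the list differed from it. LOR had 16 counts in AGASAC 7, 11 in AGASAC 9 and 0 in AGASAC 5. KRTDAP had 24 counts in AGASAC 4 and 35 in AGASAC 8, and 0 in AGASAC 5, 7 and 9. The part of adjacent epithelium in these counts was not tested.

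**Figure D3:**
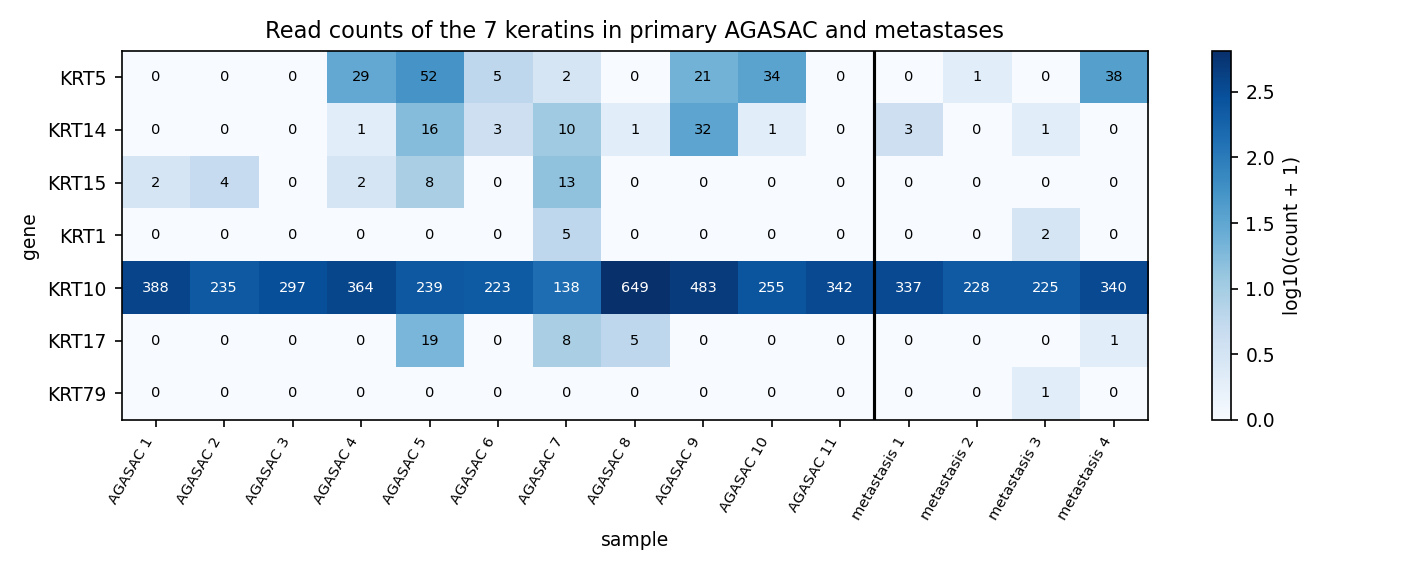
Read counts (printed in each cell, shade in log10(count + 1)) of the 7 keratins (vertical axis) in the 11 primary AGASAC and 4 metastases (horizontal axis). KRT10 has 138 to 649 counts in every primary AGASAC, and the other keratins have few counts in changing samples, such as 52 of KRT5 in AGASAC 5 and 32 of KRT14 in AGASAC 9.

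Genes known to drive or hold stratified keratins were listed beside the members. Of the 15 regulators in the table, 14 were tested, 10 were called higher in HGA and 0 lower, with a median log2FC of 2.27 against −0.03 over all tested genes. Among all tested genes 12.6% were called higher in HGA. TP63, which encodes the p63 factor of basal cells, had a mean of 255 ± 119 CPM (SD, n = 10) in HGA and 2.02 ± 2.12 CPM (SD, n = 11) in primary AGASAC (log2FC 7.01, SE 0.52, adjusted p = 2.24e-09). ZNF750, a factor of late keratinocyte differentiation (log2FC 6.44, SE 0.64, adjusted p = 1.87e-07), CEBPA (log2FC 4.14, SE 0.32, adjusted p = 4.57e-09) and SOX9 (log2FC 3.48, SE 0.59, adjusted p = 3.76e-04) were higher as well. The regulators that were not called were KLF5, GRHL1, GRHL2 and OVOL1, with log2FC from −0.14 to 0.46. In HGA 10 TP63 reached 532 CPM, the highest of all samples, beside the lowest KRT17 and KRT79 of the HGA.

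Of the 19 genes that anchor keratin filaments in desmosomes and hemidesmosomes, 16 were tested, and 10 were called higher and 1 lower in HGA, with a median log2FC of 1.33. The share called higher in HGA was 12.6% over all tested genes. DSG1, a desmosomal cadherin of stratified epithelium, had a mean of 292 ± 89.5 CPM (SD, n = 10) in HGA and 2 counts over all primary AGASAC, a ratio of 5196-fold (95% counting interval 1438 to 42903). For DSG3, its basal relative, the ratio was 648-fold (95% counting interval 222 to 3143), from a mean of 54.6 ± 26.6 CPM (SD, n = 10) in HGA and 3 counts in primary AGASAC. DSC3 (log2FC 4.54, SE 0.53, adjusted p = 2.44e-06) and ITGA6, an integrin of the basal cell membrane (log2FC 3.81, SE 0.29, adjusted p = 2.59e-09), were also higher. The anchor called lower in HGA was DST, a linker of keratin to hemidesmosomes (log2FC −1.77, SE 0.32, adjusted p = 9.19e-04), named here after its values were seen.

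The simple epithelial keratins ran the other way. Of the 5 in the table, 4 were tested and all 4 were called lower in HGA, with a median log2FC of −9.23. These 4 are also among the 7 luminal gland markers given above, so that both results share genes. KRT8 had 1 count over the 10 HGA and a mean of 465 ± 159.8 CPM (SD, n = 11) in primary AGASAC, and KRT19 had 12 counts over the 10 HGA and 1429 ± 415 CPM (SD, n = 11) in primary AGASAC. KRT18 (log2FC −6.88, SE 0.85, adjusted p = 5.16e-06) was lower too. KRT7 was lower in HGA but kept 59.9 ± 45.5 CPM (SD, n = 10) there (log2FC −3.36, SE 0.51, adjusted p = 8.20e-05). KRT10 was thus the only keratin of the lists tested here that was counted in all 25 samples at above 20 CPM. None of the 13 further stratified keratins and of the 19 hair follicle keratins in the table passed the filter in this comparison, while DESeq2, run without it, called 3 of the former and 1 of the latter, and KRT6C, KRT12, KRT24 and KRT76 were not found by symbol. Among the further stratified keratins, KRT16, a partner of KRT6A and KRT6B in stressed epidermis, averaged 19.6 ± 15.4 CPM (SD, n = 10) in HGA and was found in 1 of 11 primary AGASAC with 4 counts. KRT6A averaged 11.2 ± 12.7 CPM (SD, n = 10) and KRT6B 13.9 ± 14.1 CPM (SD, n = 10) in HGA, with 2 and 17 counts over all primary AGASAC. KRT6A and KRT6B, and KRT14, KRT16 and KRT17, are close copies, and since reads with several locations were shared evenly among them, low values of KRT6A, KRT6B, KRT16 and KRT17 are uncertain.

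Of the 13 sebocyte markers, 9 were tested, and 5 were called higher in HGA and 0 lower, where 12.6% of all tested genes were called higher. The other 4, PPARG, MC5R, ELOVL4 and PLIN2, were not called and had log2FC from −0.93 to 1.22. SCD (log2FC 5.27, SE 0.45, adjusted p = 1.94e-08) and SOAT1, an enzyme of cholesterol esters (log2FC 3.93, SE 0.58, adjusted p = 6.71e-05), were among the called genes, and CIDEA and AWAT2 had 1 count each in all primary AGASAC and means of 1647 ± 563 CPM (SD, n = 10) and 19.8 ± 10.4 CPM (SD, n = 10) in HGA. Of 6 fibroblast markers tested, at sums of 1207 to 5708 CPM in HGA and 1006 to 7906 CPM in primary AGASAC, edgeR called 0 and DESeq2 0, and 2 had an unadjusted p under 0.05. Of 3 lymphocyte markers tested edgeR called 0 and DESeq2 1, and 2 had an unadjusted p under 0.05. Among all 12070 genes tested by edgeR, 6477 had an unadjusted p under 0.05. Of the 11 surface epidermis markers 2 were tested and TGM1 was called higher in HGA (log2FC 1.23, SE 0.29, adjusted p = 0.0114), while DESeq2 called 6 of the list, whose summed level had a median of 90.2 CPM in HGA and 26.96 CPM in primary AGASAC. Of 4 endothelial markers tested 1 was called, CDH5, higher in HGA (log2FC 1.47, SE 0.38, adjusted p = 0.0239), where 25.1% of all tested genes were called. Of 5 myoepithelial and smooth muscle markers tested 1 was called, MYLK, higher in HGA (log2FC 3.095, SE 0.26, adjusted p = 1.73e-08). The median log2FC of these 5 was −0.21. The 1 skeletal muscle marker tested, ACTA1, was called lower in HGA (log2FC −6.38, SE 1.03, adjusted p = 2.05e-04).

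The metastases were compared with HGA in the same way. These HGA are the ones of the comparison above, so that the values stand beside it and are not independent of it. KRT14, KRT5, KRT17 and KRT79 were lower in the metastases, and KRT10 was counted in all 4. Of the 7 keratins, 6 passed the filter and 4 were called, all lower in the metastases. Over all 13195 genes tested, 16.1% were called and 8.4% were called lower in the metastases. The groups did not overlap for these 4, as for 7.38% of the tested genes with every HGA above every metastasis. KRT14 had 0.973, 0, 0.322 and 0 CPM in metastases 1 to 4, in all 4 counts (log2FC −13.65, SE 0.98, adjusted p = 5.70e-07). KRT5 had 0, 0.265, 0 and 12.1 CPM in metastases 1 to 4 (log2FC −8.34, SE 1.18, adjusted p = 5.84e-04), and 38 of its 39 counts were in metastasis 4. Without metastasis 4 the log2FC of KRT5 was −12.80, which rests on 1 count left in the metastases and is no bound. KRT17 was at 0 in 3 metastases and had 1 count in metastasis 4, and HGA were higher by 2721-fold (95% counting interval 488 to 107492) (adjusted p = 8.16e-05). KRT79 had 1 count, in metastasis 3, and HGA were higher by 20927-fold (95% counting interval 3756 to 826579) (adjusted p = 6.59e-06).

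KRT15 had 0 counts in all 4 metastases, and HGA were at least 6.00-fold higher against 3 counts per library. It was not called (adjusted p = 0.143), while DESeq2 gave an adjusted p of 0.00177 and Benjamini-Hochberg adjustment one of 0.0142, and the range over the alternatives was 0.00177 to 0.426. KRT1 did not pass the filter, with 2 counts in metastasis 3 and 0 in the others. KRT10 had 109, 60.5, 72.4 and 109 CPM in metastases 1 to 4, all within the range of the HGA, and was not called (log2FC −0.77, SE 0.69, adjusted p = 1.00), with a 95% interval from −2.24 to 0.70. Without HGA 10 its log2FC was −0.24. Scaling by library size alone raised the median log2FC of all genes from −0.02 to 0.26 and changed the split from 1015 higher and 1109 lower in the metastases to 1383 and 788, and the 4 keratin calls kept their direction.

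In the same comparison 7 of the 15 tested regulators were called lower in the metastases and 0 higher, 6 of the 19 tested anchors were called lower and 1 higher, and all 4 tested simple epithelial keratins were called higher. Among all tested genes 8.4% were called lower in the metastases. The median log2FC was −1.37 for the regulators, −1.91 for the anchors and 9.37 for the simple keratins, against −0.02 over all tested genes. TP63 had 6.49, 0.265, 1.61 and 6.39 CPM in metastases 1 to 4 (log2FC −6.16, SE 0.68, adjusted p = 4.88e-05). DSG1, DSG3, AWAT2 and CIDEA had 0 counts in all 4 metastases. Of the 5 further stratified keratins tested edgeR called KRT16, with 0 counts in the metastases and HGA at least 21.3-fold higher (adjusted p = 0.00708). DESeq2 called 5 of the list, and all 5 tested by edgeR had an unadjusted p under 0.05. Those 5 tested had at most 2 counts each over the 4 metastases and passed the filter through HGA alone. They could thus only come out lower in the metastases. The lymphocyte markers summed to 91.5 to 107 CPM in the metastases and 13.5 to 149.9 CPM in HGA, and of 7 tested edgeR called 0 and DESeq2 1, with 2 at an unadjusted p under 0.05. Among all 13195 genes tested by edgeR, 5431 had an unadjusted p under 0.05. Of 8 surface epidermis markers tested, 2 were called lower and 0 higher in the metastases. The 2 were KRTDAP and CDSN, both with 0 counts in the metastases. Like FLG, also at 0 there, they passed the filter through HGA alone and could only come out lower in the metastases. TGM3 of the same list went the other way, with 0 counts in HGA and a mean at least 78.8-fold higher in the metastases. It did not pass the filter and could not be called. The whole list summed to 395 CPM in metastasis 1, to 6.43 to 11.2 CPM in the other metastases and to 8.60 to 294 CPM in HGA. Most of the TGM3 mean of 97.7 CPM thus came from metastasis 1.

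Metastases and primary AGASAC of the same 4 dogs were compared to see whether the keratins differ between the sites. Only KRT10 passed the filter. It had 117, 76.8, 88.1 and 101 CPM in AGASAC 1 to 4 and 109, 60.5, 72.4 and 109 CPM in metastases 1 to 4. It was lower in the metastasis in 3 of 4 dogs and did not pass the test (log2FC −0.13, SE 0.24, adjusted p = 1.00), with a 95% interval of the log2FC from −0.68 to 0.41. With the dog as a block the log2FC was −0.16, with an interval from −0.50 to 0.19. None of the 12629 genes tested was called (0%), 145 (1.15%) had an unadjusted p under 0.05, and DESeq2 called 5. With the dog as a block 1 gene was called, not a keratin, and 491 had an unadjusted p under 0.05. KRT5 was present in both samples of dog 4, with 29 counts in the primary tumor and 38 in the metastasis, and had at most 1 count in the samples of dogs 1 to 3. KRT14, KRT1, KRT17 and KRT79 had at most 3 counts in each of these 8 samples, and a difference was not detectable at this depth. KRT15 had 2, 4, 0 and 2 counts in AGASAC 1 to 4 and 0 in all 4 metastases, and fitted without the filter it was not called (unadjusted p = 0.0334 and adjusted p = 1 by edgeR).

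Within HGA the keratins varied to very different degrees. KRT79 had a coefficient of variation of 24.8% over HGA 1 to 9 and 42.97% with HGA 10, and KRT17 44.6% and 57.9%. For KRT5 and KRT14, which were not low in HGA 10, the values over all 10 were 55.5% and 62.5%, and for KRT10 110.3%. HGA 10 held 1371 CPM of KRT5 and 2615 CPM of KRT14, inside the range of the other HGA, and 39.1 CPM of KRT79, 4.73 CPM of KRT17 and 0 counts of KRT1 and KRT15. Its KRT10 was the highest of all samples, at 20.3% of its KRT14, against 0.177% to 11.6% in HGA 1 to 9. HGA 9 had the highest KRT14, 11496 CPM, with the lowest KRT10, 20.4 CPM, and 0 counts of KRT15 and KRT1. HGA 9 also had the highest DV200, the share of RNA fragments over 200 bases, at 92.7% against 70.5% to 82.4% in the other HGA, and the part of RNA quality in these values was not tested.

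HGA 2, 5 and 7, the tumors with KRT1 above 3 counts, were also highest for KRT77, FLG and LOR, which were chosen after their values were seen. KRT77, a suprabasal keratin, had 9.49, 51.8 and 6.98 CPM in HGA 2, 5 and 7 and 0 counts in the other 7. FLG, which encodes filaggrin, had 13.1, 54.5 and 8.20 CPM in them and at most 4.30 CPM elsewhere. LOR, which encodes loricrin, had 22.6, 31.8 and 6.68 CPM against at most 4.24 CPM elsewhere. KRT15 was highest in these 3 tumors too, with 10.4, 19.96 and 13.4 CPM. The whole list of 11 surface epidermis markers did not follow them, as it summed to 294, 169 and 99.9 CPM in HGA 2, 5 and 7 and to 177 and 151 CPM in HGA 1 and 8, which had 0 counts of KRT1. KRTDAP, another gene of differentiating keratinocytes, had 79.6 CPM in HGA 1 and 42.7 CPM in HGA 8. The part of surface epidermis in the KRT1 counts was not tested.

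**Figure D4:**
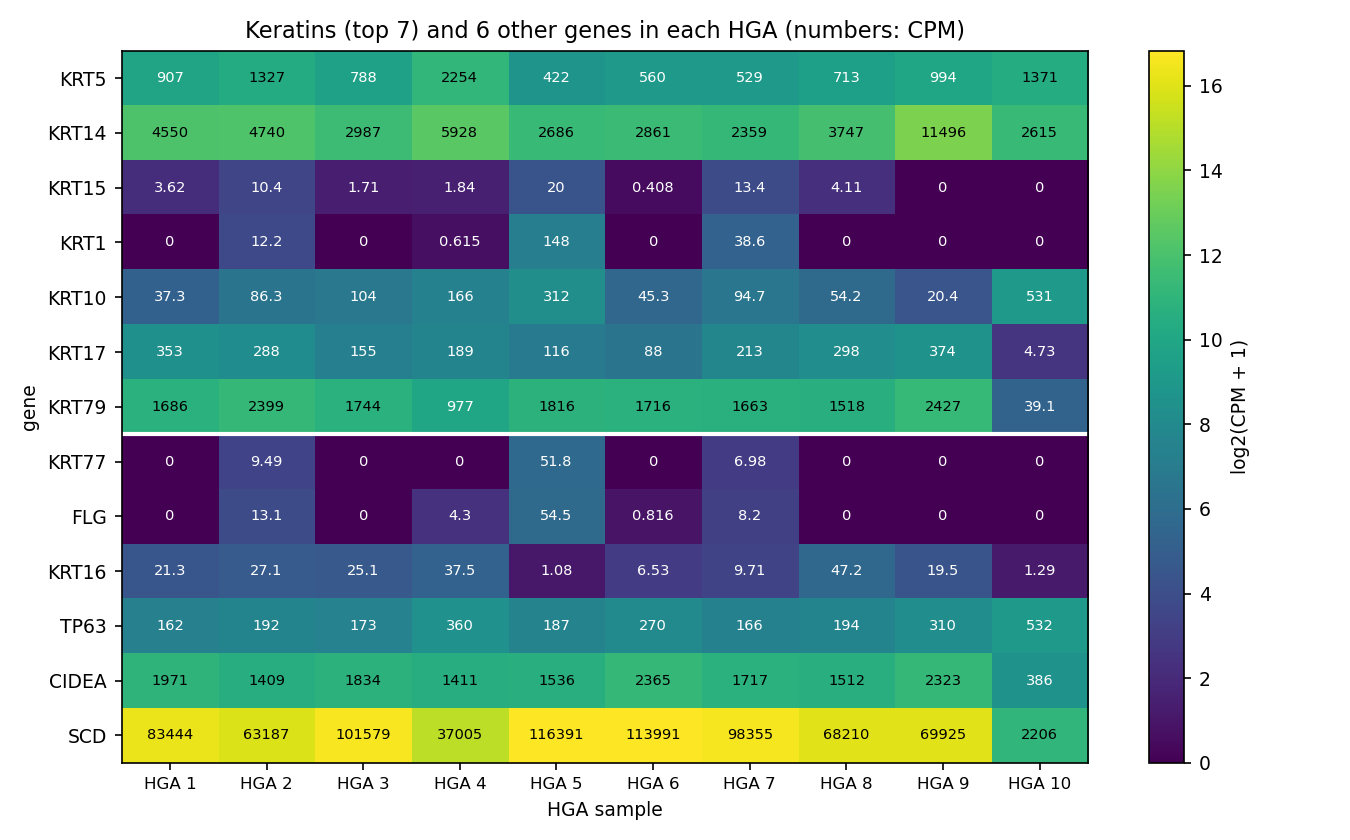
CPM (printed in each cell, color in log2(CPM + 1)) of the 7 keratins and of 6 other genes (vertical axis) in HGA 1 to 10 (horizontal axis). HGA 10 has the lowest KRT17, KRT79, CIDEA and SCD and the highest KRT10 and TP63, and KRT1 and KRT77 share HGA 2, 5 and 7.

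Over the 10 HGA the 21 pairs of keratins were correlated on the log2(CPM + 1) scale. After Benjamini-Hochberg adjustment over the 21 pairs, only KRT1 and KRT15 passed at 0.05 with Pearson's r, which was 0.85 (permutation p = 8.40e-04, adjusted 0.0176). Spearman's rho was 0.79 (permutation p = 0.0103, adjusted 0.207) and did not pass, and r without HGA 5 and 7 was 0.69. KRT1 was above 3 counts in only 3 HGA. KRT17 and KRT79 had an r of 0.92 (permutation p = 0.0261, adjusted 0.137) with Spearman's rho at 0.35 (permutation p = 0.331, adjusted 0.695). Without HGA 10 this r was 0.25, so the relation rests on that tumor. KRT10 and KRT17 had an r of −0.74 (permutation p = 0.00785, adjusted 0.0824) with Spearman's rho at −0.73 (permutation p = 0.0197, adjusted 0.207), and r was −0.53 without HGA 10 and −0.38 without HGA 9 and 10. For the filament partners KRT5 and KRT14 r was 0.51 (permutation p = 0.131, adjusted 0.394) and rho 0.58 (permutation p = 0.0883, adjusted 0.464), with r 0.37 without HGA 4 and 5. These values depended on HGA 10, since without it the 9 HGA gave r 0.66 (permutation p = 0.0556, adjusted 0.241) and rho 0.92 (permutation p = 0.00124, adjusted 0.026), of which rho passed. For KRT1 and KRT10 r was 0.38 (permutation p = 0.281, adjusted 0.419) and rho 0.44 (permutation p = 0.209, adjusted 0.549), and without HGA 10 r was 0.68 (permutation p = 0.0448, adjusted 0.241).

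**Figure D5:**
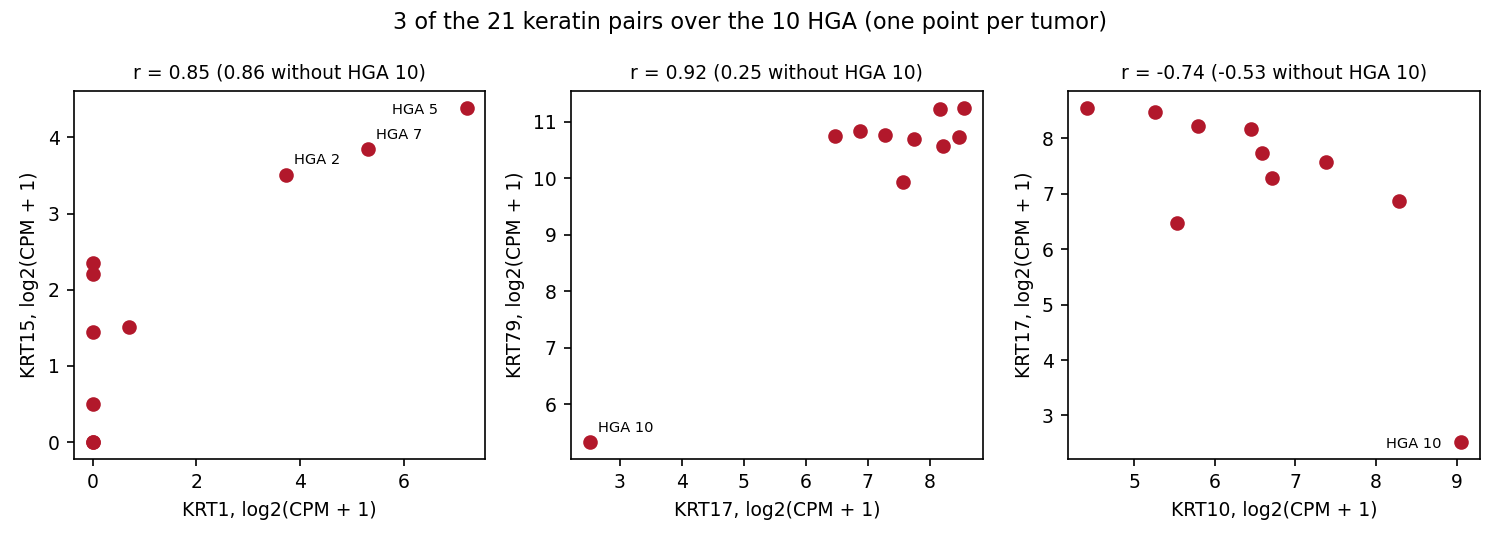
Each point is an HGA, at the log2(CPM + 1) of the keratins named on the axes, for 3 of the 21 pairs. KRT1 is at 0 in 6 tumors and rises together with KRT15 in HGA 2, 7 and 5, and the points of KRT17 with KRT79 form a cloud with HGA 10 far below it.

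The genes most alike to each keratin over the 10 HGA were found by Pearson's r of log2(CPM + 1) among 9574 or 9575 other genes with a mean of at least 10 CPM in HGA. These r are the highest of many, share the libraries and their depth, and are a description. For KRT79 they were CST6 (r = 0.99, 0.88 without HGA 10), PKP1 (r = 0.99, 0.76 without HGA 10) and LOC100855871 (r = 0.99, 0.76 without HGA 10). For KRT17 they were RNPEPL1 (r = 0.97, 0.79 without HGA 10) and ANXA7 (r = 0.96, 0.79 without HGA 10). For KRT5 they were WIZ (r = 0.95, 0.95 without HGA 10), LDB1 (r = 0.94, 0.94 without HGA 10) and FOXP4 (r = 0.93, 0.92 without HGA 10), and for KRT14 POLR2A (r = 0.91, 0.90 without HGA 10), KDM5C (r = 0.89, 0.89 without HGA 10) and ARL6IP4 (r = 0.88, 0.87 without HGA 10). For KRT10 they were ELOVL6 (r = 0.91, 0.86 without HGA 10), LOC490969 (r = 0.88, 0.79 without HGA 10) and FMR1 (r = 0.87, 0.78 without HGA 10). For the sparse KRT1 they were RBMX2 (r = 0.86, 0.86 without HGA 10), PIEZO2 (r = 0.84, 0.83 without HGA 10) and LOC106558210 (r = 0.80, 0.79 without HGA 10), and for KRT15 ITPKB (r = 0.92, 0.93 without HGA 10), PYCARD (r = 0.88, 0.92 without HGA 10) and TOP3B (r = 0.88, 0.88 without HGA 10). CST6 encodes a cystatin and PKP1 a desmosomal plakophilin of stratified epithelium, and ELOVL6 a fatty acid elongase.

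HGA of intact dogs (6) and of neutered dogs (4) were compared, since hepatoid glands are under the influence of sex hormones. None of the 5 keratins tested was called, and none had an unadjusted p under 0.05. Over all 11906 genes tested 0 were called (0%), 1167 (9.8%) had an unadjusted p under 0.05, and DESeq2 called 22. The 95% interval of the log2FC of intact relative to neutered ran from −1.21 to 0.78 for KRT5, from −0.76 to 1.34 for KRT14, from −2.25 to 1.14 for KRT10, from −1.82 to 1.24 for KRT17 and from −1.16 to 1.74 for KRT79. The KRT10 value of −0.56 turned to 1.06 without HGA 10, a tumor of a neutered dog. KRT1 and KRT15 did not pass the filter, and the tumors with KRT1 above 3 counts came from intact dogs (HGA 5 and 7) and a neutered dog (HGA 2).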

How the data were processed

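Counts per gene and sample were taken as deposited. The authors trimmed reads with cutadapt, aligned them to CanFam3.1 with STAR and counted them with featureCounts in 2 rounds, the second with gene ends extended by 2 kb, and reads with several locations were split evenly. The strand setting is not given in the sources used here. The deposited table also holds, as a signal, counts the authors divided by size factors and their mean, and the log2 fold changes and p-values of the authors' own comparison, none of which was used. It has 24532 genes, 0 rows without a gene name and 0 unused columns of samples. No coordinates are given, since the gene table used here belongs to assembly UU_Cfam_GSD_1.0.

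In R 4.3.3, edgeR 4.0.16 was run with filterByExpr (minimum count 10, total 15), TMM scaling, the quasi-likelihood test without covariates, and p-values were adjusted by Benjamini-Yekutieli. SE is the log2FC divided by the root of F, and intervals are at 95%. A mean ± SD is of CPM. Correlations used 100000 permutations, two-sided. DESeq2 1.42.0, other scalings and filters, batches, a replicate block and leaving out each sample were alternatives. Extraction batches and naming series come from the study's supplement. The replicates are tumors of different dogs. Metastasis and primary tumor of a dog were paired by the labels, and their deviations from the group means correlated (r from 0.464 to 0.773 across 10300 genes). A chi-square test of counts found 0 duplicated libraries. The scripts were tested on simulated data. Depth limits genes with few counts, as a count of 0 allows 3.

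The members, lists and rules were chosen with earlier results of these data known. Named genes are the 7 keratins, up to 4 called genes with the largest log2FC of each list, the 3 genes most alike to each keratin (1 of them, for KRT17, is not reported here), list genes at 0, and others said to be named after their values were seen, to which KRT16, KRT6A, KRT6B, KRT4, KRT13, KRT23, TGM3, KLF5, GRHL1, GRHL2, OVOL1, PPARG, MC5R, ELOVL4, PLIN2, KRTDAP, CDSN and KRT25 also belong.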

Additional observations from a re-analysis of the deposited data

Results flagged for a closer look

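In 4 cases a sample stood apart from the rest of its group by the gap to its nearest neighbor relative to the group's range. This was examined in 9 sets of values with 4 or 10 samples, and chance alone flags about 1 in 20. KRT1 in HGA 5 was 148 CPM, against 38.6 in the next HGA. KRT14 in HGA 9 was 11496 CPM, against 5928 in the next. KRT5 in HGA 4 was 2254 CPM, against 1371 in the next. KRT5 in metastasis 4 was 12.1 CPM, against 0.265 in the next metastasis. The low KRT79 of HGA 10 (39.1 CPM) was not among them. The next HGA had 977 CPM and the highest 2427 CPM, and gaps were read against the range on the linear scale.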

How the results depend on the processing

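In HGA versus primary AGASAC, KRT5, KRT14, KRT17 and KRT79 were called in all 21 fits that left out a sample and in every alternative but extraction batch 8 alone, where 1 of the 7 keratins was called, and the unfiltered edgeR fit called KRT1 besides. All genes called numbered 262, 637 and 338 in batches 5, 6 and 8, with fewer samples, against 3032. The log2FC of KRT10 turned to −0.19 in batch 5, −0.36 in batch 8 and −0.10 with batch as a covariate, which sets HGA 10 aside as the only sample of its batch. Leaving out AGASAC 5 moved KRT17 to 8.89, and leaving out AGASAC 9 moved KRT14 to 12.02. In metastases versus HGA the genes called were 3536 with Benjamini-Hochberg adjustment and 3187 with DESeq2, against 2124, and the 4 keratins were called in all 14 fits that left out a sample. Leaving out metastasis 1 moved KRT14 to −14.92, metastasis 3 moved KRT79 to −15.21 and metastasis 4 moved KRT17 to −12.28. At most 1 count was left in the other metastases, so that these 3 values depend on the fit's prior count and are no bounds. In intact versus neutered HGA, 1 gene was called with Benjamini-Hochberg adjustment and without the filter, 22 with DESeq2, and 0 to 1 when a sample was left out, and none was a keratin. There, leaving out a sample gave a log2FC of −1.08 to 1.06 for KRT10, −0.22 to 0.43 for KRT14 and −0.11 to 0.69 for KRT79. Between metastases and primaries DESeq2 called 5 genes, and leaving out a sample gave −0.26 to 0.00305 for KRT10. For the correlations a pseudocount of 10 left 1 pair passing. The causes were not tested.

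The replicate block is a pairing by dog between metastases and primaries, where it called 1 gene, not a keratin. HGA and AGASAC share only a number, as same-numbered tumors correlated at −0.05 to 0.04 in 10 pairs and 0 of 10 correlated best with its own number. With that block 2622 genes were called in HGA versus primary AGASAC, where the log2FC of KRT10 was −0.00717, and 762 in metastases versus HGA, and the same 4 keratins were called in both. The block changed no other call of a keratin.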

Other observations

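Keratins of the hair follicle were found in some HGA. Over the 19 hair follicle keratins in the table the sum was 58.3 CPM in HGA 2, 43.7 in HGA 4 and 25.1 in HGA 8, from 15, 8 and 12 of these genes, and 0 to 6.68 CPM in the other 7 HGA. In primary AGASAC it was 0 to 4.19 CPM and in the metastases 0.639 to 2.57 CPM. No single gene of the list exceeded 10.8 CPM in an HGA. KRT25, an inner root sheath keratin, had a mean of 2.34 ± 3.57 CPM (SD, n = 10). HGA 2, the highest for hair keratins, also had KRT1, while HGA 4 had 1 count and HGA 8 none.

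AGASAC 7 held counts of KRT4 and KRT13, keratins of non-cornifying stratified epithelium. KRT4 had 38 counts there, 4 in AGASAC 9 and 0 in the other 23 samples. KRT13, its usual partner, had 10 counts in AGASAC 7, 0 in all other AGASAC samples and up to 10.4 CPM in HGA. AGASAC 7 was also the only primary AGASAC with KRT1 and the one with most KRT15. KRT23, a keratin of glandular epithelium, had 63.3 CPM in AGASAC 1 and 77.9 CPM in the metastasis of the same dog, against at most 12.7 CPM in the other 13 AGASAC samples and 2.43 CPM in HGA.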
